A study of Mus musculus with 37 samples.

Results

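Pparg, Gata3, Foxa1, Grhl3, Elf3, Klf5 and Xbp1 encode transcription factors of the luminal, differentiated layers of the urothelium. These 7 genes were taken by symbol from a table of 24421 gene symbols, and their levels were followed over all 37 whole-transcriptome sequencing (WTS) libraries. All libraries came from WT female BALB/c mice. UT was the cancer-bearing side of the upper urinary tract of mice given the nitrosamine carcinogen BBN (11 libraries, of which UT 5R and UT 5L were the ureters of 1 mouse). UN was the noncancerous side in 7 of the same mice, and U was the ureter of untreated mice given tap water (6 libraries, the right and left ureters of 3 mice). BBN bladder came from the 10 BBN-treated mice that also gave UT, and bladder from the 3 untreated mice. BBN was given at 0.05% in drinking water from 6 to 7 weeks of age, for 18 weeks by the series description and for 17 to 20 weeks by the methods of the study. RNA was extracted from whole tissue, so each level is an average over epithelium, stroma and any fat around the ureter. A lower level may reflect fewer cells of a type or less RNA per cell, which cannot be told apart in bulk samples.

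PPARγ, encoded by Pparg, is a nuclear receptor that binds DNA with a retinoid X receptor and drives urothelial differentiation, and it is also the master regulator of adipocytes. GATA3 and FOXA1 act as its partners in luminal urothelium, where they open chromatin and hold the luminal program in place. GRHL3 is required for the umbrella cells, the superficial cells that carry uroplakin plaques. ELF3 and KLF5 are an ETS factor and a Krüppel-like factor of differentiating epithelia, and XBP1 is a factor of the unfolded protein response used by secretory cells.

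Library totals ranged from 4675081 to 18793560 estimated counts in the 24 ureter libraries and from 3557697 to 16617435 in the 13 bladders. Levels are given as CPM, counts scaled to a common library total. Epithelial content differed greatly, with 8 pan-epithelial markers such as Epcam and Cdh1 summing to 409.6 ± 79.3 CPM in U, 1253 ± 1007 in UN and 2569 ± 1239 in UT (SD, n = 6, 7 and 11). Their sum was 2354 ± 107 CPM in bladder and 2821 ± 1702 in BBN bladder (SD, n = 3 and 10). UN 2 stood apart, with a pan-epithelial sum of only 38.7 CPM and the highest adipocyte marker sum of UN, 53343 CPM. UT 9 was nearest to U, with 516 CPM of pan-epithelial and 33390 CPM of adipocyte markers. The BBN bladders of mice 1, 3, 4 and 6 had pan-epithelial sums of 839, 514, 890 and 1579 CPM, against 3101 to 5021 CPM in the other 6. Those of mice 1, 3 and 4 also had the lowest totals of that group. Kidney tubule markers summed to 2098 CPM in UT 4 and to at most 39.4 CPM in any other library. The library of the bladder of mouse 6 carries a T for tumor in its name, while its title says only bladder.

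The RefSeq promoter table held 6 of the 7 members, in 8 windows of 250 bases before a start. Stretches of 4 windows are shown, because Pparg has alternative starts and because the Foxa1 and Elf3 windows hold a forkhead and a grainyhead motif. In the GENCODE vM21 annotation, Pparg lies at chr6:115360951-115490399 on the plus strand, Foxa1 at chr12:57540628-57546916 and Elf3 at chr1:135253575-135258568, both on the minus strand. An annotated exon of Pparg, Foxa1 or Elf3 reaches into the RefSeq window, so the stretches of Pparg and Foxa1 stop before it. The Foxa1 window lies inside the annotated gene, whose 5′ end at 57546916 is upstream of it. All are of build GRCm38.p6, read 5′ to 3′ on the strand of the gene. The first pair lies before the most upstream start of Pparg (chr6:115360894-115360950, plus) and before the most downstream of its 3 starts (chr6:115421816-115422065, plus), which gives the isoform used mainly by fat cells. Capitals mark a forkhead motif in Foxa1 (chr12:57546122-57546361, minus) and the grainyhead core in Elf3 (chr1:135258523-135258552, minus), which lies within the first exon of Elf3 in GENCODE.
Pparg, upstream start: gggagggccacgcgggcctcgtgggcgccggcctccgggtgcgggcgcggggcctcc
Pparg, downstream start: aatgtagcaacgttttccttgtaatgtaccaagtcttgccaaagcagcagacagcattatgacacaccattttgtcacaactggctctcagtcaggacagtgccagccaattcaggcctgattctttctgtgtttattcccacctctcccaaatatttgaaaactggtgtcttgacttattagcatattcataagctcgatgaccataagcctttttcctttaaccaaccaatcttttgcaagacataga
Foxa1: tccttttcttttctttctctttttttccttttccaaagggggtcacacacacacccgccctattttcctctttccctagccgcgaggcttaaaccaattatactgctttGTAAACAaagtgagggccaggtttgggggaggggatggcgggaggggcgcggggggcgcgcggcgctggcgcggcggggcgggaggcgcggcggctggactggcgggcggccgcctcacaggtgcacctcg
Elf3: agctcaggttacAACCGGggacgtacgccg

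Over the full 250 bases, these 2 Pparg windows had a GC content of 82.4% upstream and 40.8% downstream. Motifs were searched as exact letters on both strands. The grainyhead core AACCGG occurred among the members in the Elf3 window alone, from 68 to 63 bases before the start, and in 5.62% of the 32851 promoter windows of this length. The forkhead motif TGTTTAC occurred among the members in the Foxa1 window alone, from 141 to 135 bases before the start on the opposite strand, and in 3.17% of all windows. The GC box GGGCGGG, a site type of Krüppel-like factors, was in the windows of Pparg, Gata3 and Foxa1 and in 23.4% of all windows. The PPAR response element, a direct repeat of AGGTCA with 1 base between, was in no member's window and in 0.0335% of all. No match overlapped another. The counts are per gene, so they do not say which Pparg start was used.

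Pparg was highest in untreated ureter. It measured 289, 336.4 and 372 CPM (lowest, median and highest of 6) in U, 83.8, 153 and 279 CPM in UN, and 9.61, 63.9 and 229 CPM in UT. Every UT library lay below every U library, UT 4 and UT 2 were lowest, and UT 9 was highest. In untreated bladder Pparg measured 191, 222 and 229 CPM in the 3 mice, and BBN bladders measured 5.34, 48.2 and 75.1 CPM at the lowest, median and highest. The bladder groups did not overlap either. How many of all genes lay apart in CPM was not counted, so overlap of levels is given as a description.

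Gata3 showed a large difference between organs and a small one between ureter groups. It measured 42.3, 74.2 and 88.5 CPM in U, 0.914, 49.2 and 190 CPM in UN, and 35.8, 98.5 and 204 CPM in UT. These ranges overlapped, and the lowest library of UN was UN 2 and that of UT was UT 9. The 3 untreated bladders measured 506, 582 and 584 CPM, while BBN bladders measured 16.0, 163 and 263 CPM, again without overlap. The 4 lowest BBN bladders were those of mice 3, 4, 6 and 1, between 16.0 and 27.5 CPM.

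Foxa1, which encodes a forkhead pioneer factor, measured 14.8, 31.4 and 44.6 CPM in U, 0.366, 93.2 and 121 CPM in UN, and 18.1, 85.7 and 180 CPM in UT. UT 4, UT 7 and UT 9 lay within the range of U, and the other 8 UT libraries lay above it. The untreated bladders measured 194, 226 and 289 CPM and the BBN bladders 26.1, 113 and 239 CPM. Only the BBN bladder of mouse 8 reached into the range of the untreated bladders.

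Grhl3 was close in level in the ureter groups and high in untreated bladder. It measured 18.7, 32.4 and 42.0 CPM in U, 0, 21.5 and 93.6 CPM in UN, and 13, 29.6 and 56.7 CPM in UT. UN 2 had a count of 0, which at 10941540 counts allows a level of up to 0.274 CPM from 3 counts, for counting error only. The untreated bladders measured 245, 275 and 287 CPM, and every BBN bladder was lower, at 3.84, 63.4 and 211 CPM.

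Elf3 ran the other way in the ureter. It measured 21.99, 36.9 and 40.6 CPM in U, 1.37, 138 and 310 CPM in UN, and 70.0, 440 and 867 CPM in UT, so that no UT library overlapped U. UT 9 was the lowest UT library and UT 2 the highest. The untreated bladders measured 180, 205 and 253 CPM, and the BBN bladders 46.9, 454 and 861 CPM. The BBN bladders of mice 1, 3, 4 and 6 lay below all untreated bladders, between 46.9 and 94.8 CPM, and the other 6 lay above them.

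Klf5 followed Elf3 in the ureter at lower values. It measured 10.6, 17.8 and 26.3 CPM in U, 1.83, 53.0 and 120 CPM in UN, and 17.9, 97.3 and 230 CPM in UT. UT 9 was the only UT library within the range of U. The untreated bladders measured 120, 130 and 132 CPM and the BBN bladders 6.47, 122 and 245 CPM, with the libraries of mice 1, 3, 4 and 6 again lowest, at 6.47 to 30.7 CPM.

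Xbp1 lay at similar levels in the 3 ureter groups. It measured 354, 467 and 481 CPM in U, 127, 488 and 606 CPM in UN, and 292, 489 and 803 CPM in UT, where the lowest UN library was UN 6. The untreated bladders measured 260, 262 and 269 CPM and the BBN bladders 40.5, 279 and 404 CPM. UN 2, which had almost none of the other members apart from Pparg, was the highest UN library for Xbp1.

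**Figure D1:**
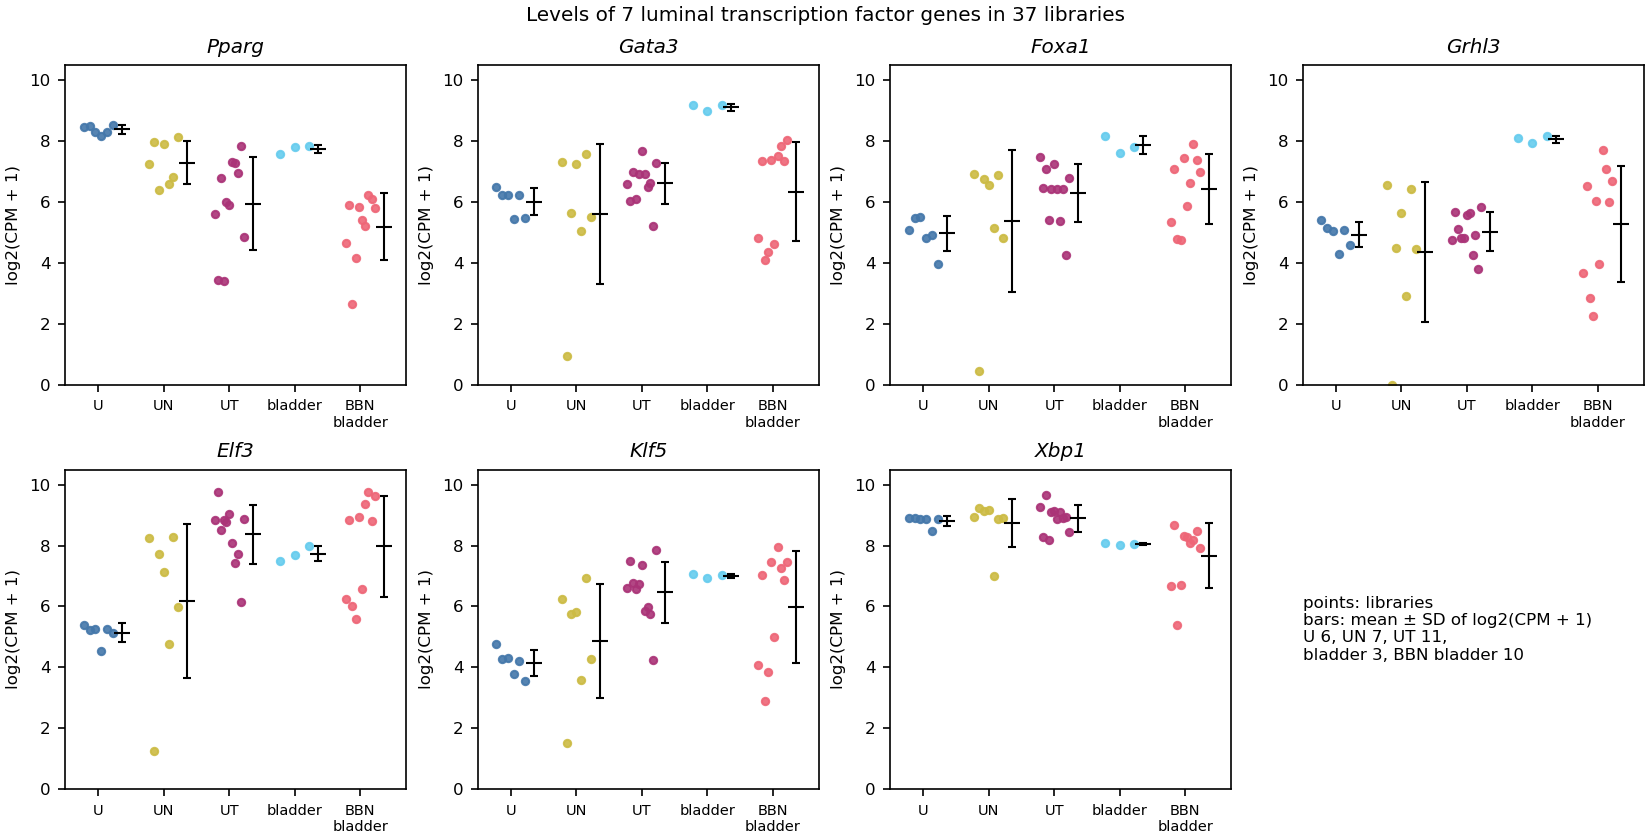
Level of each of the 7 genes, as log2(CPM + 1), in every library of the 5 groups. Points are libraries and black bars the mean ± SD (U 6, UN 7, UT 11, bladder 3, BBN bladder 10). Pparg falls from U (289 to 372 CPM) to UT (9.61 to 229 CPM), Elf3 rises, and the low UN point of Gata3, Foxa1, Grhl3, Elf3 and Klf5 is UN 2.

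Levels of different genes were compared per kilobase of exon. In U, Xbp1 and Pparg led with 139 ± 14.9 and 114 ± 11.3 CPM per kb (SD, n = 6), and the other 5 members lay between 3.33 and 16.7 CPM per kb on average. In UT, Elf3 came first at 177 ± 96.6 CPM per kb and Xbp1 second at 153 ± 45.4, while Pparg was at 30.6 ± 24.01 (SD, n = 11). In untreated bladder, Gata3 was highest at 140 ± 11.1 CPM per kb, followed by Grhl3 at 96.5 ± 7.63 and Elf3 at 95.8 ± 16.8 (SD, n = 3). In BBN bladder, Elf3 was highest at 180 ± 142 CPM per kb and Pparg lowest at 14.8 ± 7.74 (SD, n = 10). Other annotated genes overlap Gata3, Elf3 and Pparg by position, mostly antisense ones, and strand-aware counting is not stated, so reads there could belong to either gene.

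**Figure D2:**
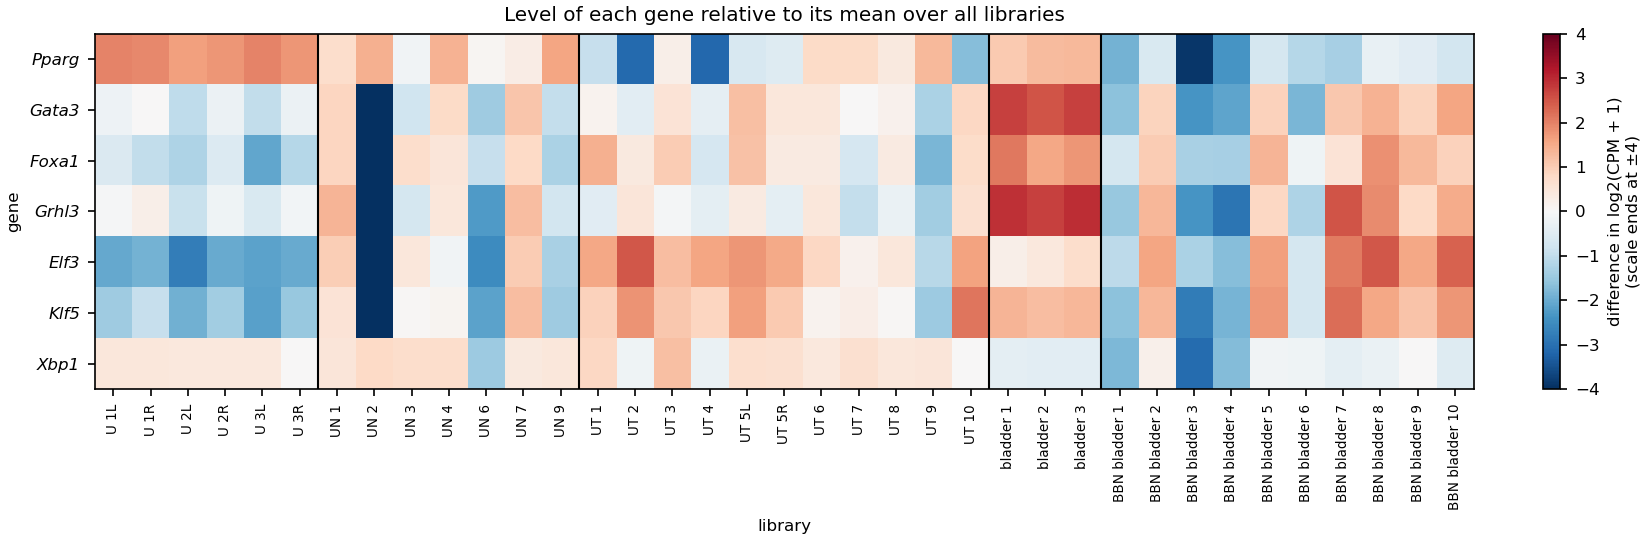
Each of the 7 genes (rows) in each of the 37 libraries (columns, ordered by group), as the difference in log2(CPM + 1) from the mean of that gene over all libraries. The color scale ends at ±4, where values beyond it take the end color. Pparg is red in all U and darkest blue in UT 2, UT 4 and BBN bladder 3, while Elf3 and Klf5 are blue in all U and UT 9 and white to red in the other UT libraries.

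The normal organs were compared first, to give the starting levels. In U against bladder, all 7 members passed edgeR's quasi-likelihood test at FDR under 0.1 and at least 2-fold, 2 of them higher and 5 lower in U. Of the 15318 genes tested, 15.7% were called higher, 14.3% lower and 30.0% in all. Pparg was higher in U by 1.03 ± 0.13 (log2 fold change ± SE, adjusted p = 3.43e-05), at 2.05-fold, and Xbp1 by 1.16 ± 0.14 (adjusted p = 1.37e-05). Grhl3 was 6.81-fold lower in U (log2 fold change -2.77 ± 0.18, adjusted p = 1.08e-07) and Gata3 6.51-fold lower (-2.70 ± 0.19, adjusted p = 1.83e-07). Klf5 at -2.51 ± 0.19, Foxa1 at -2.50 ± 0.24 and Elf3 at -2.24 ± 0.16 were lower by similar amounts. All 8 pan-epithelial markers were also lower in U, with a median log2 fold change of -2.27, and all 7 adipocyte markers higher, with a median of 6.57, against -0.02 over all genes. The part of these markers in the members' differences was not tested here. Without the untreated bladder of mouse 1 or without U 3L, the log2 fold change of Pparg was 0.96 or 0.97, and by limma voom 0.997, all under 2-fold.

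In UT against U, the comparison of cancer with healthy ureter, 3 members were called higher and 1 lower. Of the 15658 genes tested, 18.7% were called higher, 12.3% lower and 30.9% in all, so that the count of members stands beside a large change of the transcriptome. Elf3 rose 9.41-fold (log2 fold change 3.23 ± 0.64, adjusted p = 0.000463) and Klf5 rose 5.09-fold (2.35 ± 0.54, adjusted p = 0.00152). Foxa1 rose 2.42-fold (1.27 ± 0.56, adjusted p = 0.0677), and Pparg fell 4.49-fold (-2.17 ± 0.48, adjusted p = 0.00119). Gata3 (0.41 ± 0.48), Grhl3 (-0.10 ± 0.53) and Xbp1 (-0.14 ± 0.24) were not called. With both ureters of a mouse summed to 1 sample, Foxa1 was no longer called (adjusted p = 0.284), nor was it called without UT 1, U 1R, U 2L, U 3R or U 3L (adjusted p from 0.104 to 0.134) or by limma voom (0.97, under 2-fold), or with the RNA integrity number as a covariate (1.20, adjusted p = 0.139).

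All 8 pan-epithelial markers rose in UT against U (median log2 fold change 2.17, against 0.11 over all genes) and all 7 adipocyte markers fell (median -2.59). With the adipocyte score of each library as a covariate, Pparg changed by -0.59 (adjusted p = 0.122) and Klf5 by 1.0 (adjusted p = 0.244), and only Elf3 was called (1.83, adjusted p = 0.0494). With the epithelial score as a covariate, all 4 calls were lost: Elf3 changed by 0.50 (adjusted p = 0.159), Klf5 by 0.06 (adjusted p = 0.886), Pparg by -1.25 (adjusted p = 0.110) and Foxa1 by -0.86 (adjusted p = 0.258). Under that covariate Gata3 and Grhl3 were called lower in UT, by -1.41 (adjusted p = 0.0243) and -2.21 (adjusted p = 0.00224). Of all genes, 14.2% were called with the adipocyte score and 15.7% with the epithelial score. The scores themselves differed between UT and U.

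In UN against U, the comparison of noncancerous BBN-exposed ureter with healthy ureter, Elf3 was the only member called. It was 3.70-fold higher in UN (log2 fold change 1.89 ± 0.62, adjusted p = 0.0469), where 12.5% of the 15658 genes were called higher, 1.21% lower and 13.7% in all. Klf5 (1.25 ± 0.54, adjusted p = 0.129), Foxa1 (1.0 ± 0.59, adjusted p = 0.265) and Pparg (-0.94 ± 0.54, adjusted p = 0.255) were not called. Of the pan-epithelial markers, 5 of 8 were called higher in UN (median log2 fold change 1.38, against 0.13 over all genes). With the epithelial score as a covariate Elf3 changed by 0.30 (adjusted p = 0.349) and the only member called was Grhl3, lower by -1.20 (adjusted p = 0.0528), and with the adipocyte score Elf3 changed by 1.27 (adjusted p = 0.147). Of all genes, 11.8% were called with the epithelial score and 12.4% with the adipocyte score. UN 2 and UN 6 had the least epithelial signal of UN. In UN 6 the 10 most abundant genes held 35.5% of the counts, the highest share of all libraries. Without both, a setting chosen after seeing the data, Elf3 (2.25, adjusted p = 0.00244), Klf5 (1.57, adjusted p = 0.0249) and Foxa1 (1.25, adjusted p = 0.0572) were called higher, where 13.6% of all genes were called. Without UN 2 alone, Klf5 (1.46, adjusted p = 0.0360) and Foxa1 (1.22, adjusted p = 0.0522) were called, and without UN 9, Klf5 was (1.37, adjusted p = 0.0862), while leaving out UN 6 alone changed no call. Of all genes, 14.7% were called without UN 2 and 17.1% without UN 9. Elf3 was not called without U 2L (adjusted p = 0.105), where 10.3% of all genes were called, or with the ureters of a mouse summed (1.88, adjusted p = 0.316), where 0.962% were.

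In UT against UN, no member was called by edgeR's quasi-likelihood test, while 1.32% of the 15658 genes were called higher, 4.20% lower and 5.52% in all. That share rested on single libraries: the 864 genes called became 5 to 22 without UT 2, UT 5L, UT 5R, UT 10, UN 2 or UN 6, and 1854 without UN 7. By edgeR, 0 genes were called with mouse as a block, with the RNA integrity number or the epithelial score as a covariate, or with only these groups in the fit (623 to 2806 at an unadjusted p under 0.05), against 1391 by DESeq2 and 669 by limma voom in the fit of all libraries. Pparg was lower in UT by -1.23 ± 0.47 (adjusted p = 0.119), Elf3 higher by 1.35 ± 0.54 (adjusted p = 0.136) and Klf5 higher by 1.10 ± 0.48 (adjusted p = 0.158). These 3 had an unadjusted p under 0.05, DESeq2 called all 3, and limma voom called 0. The fits without UT 9 and without UN 7 each called the same 3 (Pparg -1.49 and -1.35, Elf3 1.47 and 1.56, Klf5 1.22 and 1.43), and the fit without UN 3 called Pparg (-1.35) and Elf3 (1.5). Of all genes, 10.8, 11.9 and 11.4% were called in these 3 fits. For the remaining 4 members the log2 differences lay between -0.23 and 0.27.

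Within the 7 mice that gave both a UT and a UN library, no member passed (exact permutation of signs, two-sided, with the 7 p-values adjusted together and 0.0156 as the smallest p before adjustment, which a single member could not carry past 0.05 after it). Elf3 was higher in UT in 6 of 7 mice, by 2.04 ± 3.14 on the log2(CPM + 1) scale (SD, n = 7 mice, two-sided exact permutation p = 0.0938, adjusted p = 0.438). Klf5 was higher in 5 of 7, by 1.34 ± 2.28 (SD, n = 7, exact permutation p = 0.125, adjusted p = 0.438). Pparg was lower in UT in 4 of 7 mice and higher in mice 3, 6 and 7, with a mean difference of -1.34 ± 2.31 (SD, n = 7, exact permutation p = 0.234, adjusted p = 0.547). The largest differences of Elf3, 8.52, and of Foxa1, 6.01, were both in mouse 2, whose UN library had almost no epithelial signal, as was that of Klf5, 5.998. Without mouse 2, a setting chosen after seeing the data, the mean difference was 0.96 for Elf3, 0.57 for Klf5 and -0.81 for Pparg (n = 6 mice, exact permutation, adjusted p = 0.820 each).

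In the bladder, Pparg and Gata3 were lower after BBN. In BBN bladder against bladder, Pparg fell 4.27-fold (log2 fold change -2.10 ± 0.38, adjusted p = 0.00246) and Gata3 fell 4.21-fold (-2.08 ± 0.56, adjusted p = 0.0298). These 2 members were called lower and none higher, where 5.74% of the 18050 genes were called lower, 7.61% higher and 13.3% in all. Grhl3, at -1.86 ± 0.70 (adjusted p = 0.112), and Foxa1, at -0.98 ± 0.41 (adjusted p = 0.141), were not called. Elf3 (0.98 ± 0.69), Klf5 (-0.20 ± 0.68) and Xbp1 (0.10 ± 0.43) were not called either. The median over all genes was 0.25 on the same scale, and 0.35 with RLE in place of TMM normalization. Of the pan-epithelial markers 0 of 8 were called, with a median of 0.38, while 3 of the 4 urothelium markers fell, with a median of -3.39.

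The BBN bladders of mice 1, 3, 4 and 6 had low pan-epithelial sums, although Rab25, 1 of the 8 markers, was lowest in that of mouse 2 (163 CPM). The 10 most abundant genes held 22.4, 29.5 and 21.5% of the counts in the BBN bladders of mice 1, 3 and 4, against 5.17 to 12.2% in the other 7. RNA quality was not separated from epithelial content in these libraries. With the RNA integrity number as a covariate, Grhl3 was also called lower (-1.57, adjusted p = 0.0302) and Elf3 higher (1.35, adjusted p = 0.0835). That fit called 18% of all genes. Without the BBN bladders of mice 1, 3 and 4, Pparg (-1.85, adjusted p = 0.000143), Gata3 (-1.70, adjusted p = 0.0120) and Grhl3 (-1.43, adjusted p = 0.0596) were called lower and Elf3 higher (1.38, adjusted p = 0.0543). With the epithelial score as a covariate, Pparg, Gata3, Grhl3 (-2.19, adjusted p = 0.000111) and Foxa1 (-1.01, adjusted p = 0.00356) were called lower. Of all genes, 20.3% were called without those 3 libraries and 30.7% with the epithelial score. Gata3 was not called when any of the 3 untreated bladders was left out (-2.16 to -2.04, adjusted p from 0.104 to 0.132), where the genes called fell from 2409 to between 1024 and 1075, 5.31 to 5.57% of those tested. Grhl3 was called without the BBN bladder of mouse 3, 4, 7 or 8 (-2.24 to -1.73, adjusted p from 0.0344 to 0.0990) and by DESeq2 (-1.84, adjusted p = 0.0408), which called 32.1% of all genes, and Foxa1 without that of mouse 8 (-1.13, adjusted p = 0.0704).

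**Figure D3:**
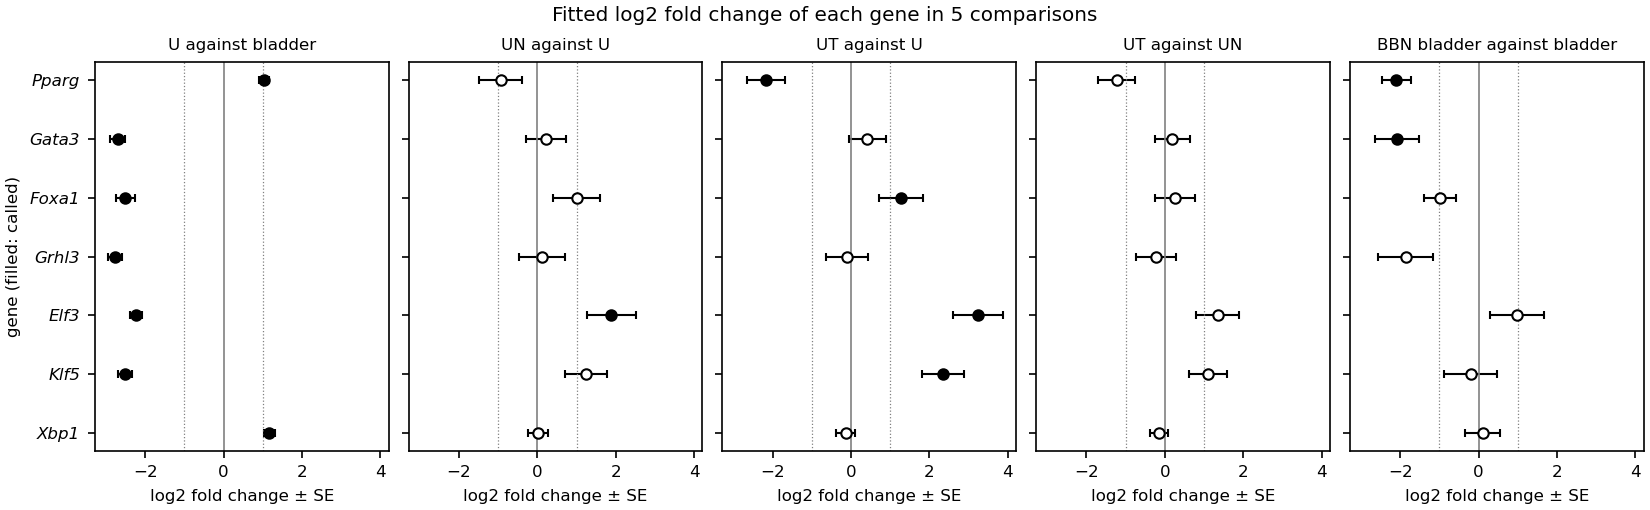
Fitted log2 fold change ± SE (horizontal axis) of each gene in 5 comparisons, from edgeR. Filled points passed FDR under 0.1 and 2-fold, and dotted lines mark 2-fold. All 7 genes are filled in U against bladder, 4 in UT against U, Elf3 alone in UN against U, none in UT against UN, and Pparg and Gata3 in BBN bladder against bladder.

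The difference between the BBN effects of the organs, (UN - U) minus (BBN bladder - bladder), was tested in a fit of those 4 groups. No member was called by edgeR's quasi-likelihood test, where 1.51% of the 18786 genes were called higher, 0.548% lower and 2.06% in all. Gata3 (2.27 ± 0.90, adjusted p = 0.288), Foxa1 (1.958 ± 0.82, adjusted p = 0.325) and Pparg (1.13 ± 0.52, adjusted p = 0.389) had an unadjusted p under 0.05. DESeq2 called 0 members and limma voom called Gata3 and Foxa1, as did the fit without UN 2 (2.48, adjusted p = 0.0635, and 2.17, adjusted p = 0.0270). Of all genes, limma voom called 15.8% and the fit without UN 2 called 3.05%. The 387 calls of the full fit became 149 to 186 when any untreated bladder was left out. Without UN 2, UN 6 and the BBN bladders of mice 1, 3 and 4, Gata3 (2.25, adjusted p = 0.0126), Foxa1 (1.98, adjusted p = 0.00893) and Grhl3 (1.95, adjusted p = 0.0557) were called, with 8.7% of all genes.

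Because epithelial content moved with the groups, each member was also set against the epithelium. The measure was log2(CPM + 1) of the member minus the mean of log2(CPM + 1) over the 8 pan-epithelial markers, and 28 two-sided exact permutation tests over libraries were adjusted together, with an adjusted p under 0.05 counted as passed. The level of the markers enters the ratio of every gene, and the ratio of the median gene changed by -2.15 in UT against U, -1.51 in UT against UN and -0.66 in UN against U, and by -0.04 in BBN bladder against bladder. In UT against U, 87.3% of the 15658 genes had a lower ratio at the unadjusted p of the members that passed (0.0185 or less) and 0.773% a higher one, 88.0% in all. A lower ratio there is therefore no result about a member, and the values are given as a description. Gata3 measured 0.84 ± 0.27 in U and -1.003 ± 0.69 in UT (SD, n = 6 and 11, exact permutation, adjusted p = 0.000754). Grhl3 measured -0.25 ± 0.18 in U and -2.60 ± 0.62 in UT (SD, n = 6 and 11, exact permutation, adjusted p = 0.000754). For both genes every UT library lay below every U library, as for 22.6% of all genes, and their differences, -1.84 and -2.35, lay near that of the median gene.

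Elf3 was the only member with a higher ratio in UT than in U, except that with Cdh1 alone as the reference Klf5 was also higher (0.36, adjusted p = 0.0440, exact permutation). The ratio of Elf3 was -0.05 ± 0.07 in U and 0.74 ± 0.28 in UT, without overlap (SD, n = 6 and 11, exact permutation, adjusted p = 0.000754), as were 0.319% of all genes on the higher side. A larger rise of the ratio than that of Elf3 was found for 0.971% of all genes. The ratio of Klf5 was -1.04 ± 0.32 in U and -1.16 ± 0.25 in UT (SD, n = 6 and 11, exact permutation, adjusted p = 0.484). Foxa1 was lower in UT relative to the markers by -1.11 (n = 6 and 11, exact permutation, adjusted p = 0.0109), less than the median gene, and by -0.63 with Cdh1 alone (adjusted p = 0.212, exact permutation). Pparg was lower by -4.89 (adjusted p = 0.00272, exact permutation) and Xbp1 by -2.36 (adjusted p = 0.00272, exact permutation). The difference of Xbp1 lay near that of the median gene, while 1.62% of all genes had a lower one than Pparg. Over all libraries, Pparg had a Pearson's r of -0.44 with the summed pan-epithelial and 0.69 with the summed adipocyte markers. The part of fat in its ratio was not tested. UN 2 held 248 CPM of Pparg and 606 CPM of Xbp1 at a pan-epithelial sum of 38.7 CPM.

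In BBN bladder against bladder, 4 ratios were lower without overlap between the groups, as were those of 9.86% of the 18050 genes, and 3.67% were higher without overlap. At the p of the members that passed, 11.1% of all genes were lower and 3.31% higher, 14.4% in all. Grhl3 differed by -2.61, Gata3 by -2.59, Pparg by -2.36 and Foxa1 by -1.26 (n = 10 and 3, exact permutation, each with an adjusted p = 0.00979). Elf3 differed by 0.44 (adjusted p = 0.312, exact permutation), Klf5 by -0.84 (adjusted p = 0.0762, exact permutation) and Xbp1 by -0.19 (adjusted p = 0.606, exact permutation). With Cdh1 alone as the reference, those of Pparg (-1.5, adjusted p = 0.212) and Foxa1 (-0.40, adjusted p = 0.677) did not pass and that of Elf3 did (1.30, adjusted p = 0.0285, exact permutation).

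In UT against UN, the ratios of Pparg (-3.09, adjusted p = 0.0318), Grhl3 (-1.07, adjusted p = 0.0169) and Foxa1 (-0.79, adjusted p = 0.0323) were lower and that of Elf3 higher (0.44, adjusted p = 0.0204) by exact permutation over 11 and 7 libraries, where 13.9% of all genes were lower at the same threshold and 0.0703% higher, 14.0% in all. The differences of Grhl3 and Foxa1 were smaller than that of the median gene, -1.51, and Xbp1 (-1.59, adjusted p = 0.0716, exact permutation) did not pass. Without UN 2 and UN 6, Pparg (-1.97, adjusted p = 0.152), Foxa1 (-0.69, adjusted p = 0.0701) and Elf3 (0.29, adjusted p = 0.133) did not pass by exact permutation, and with 1 value per mouse Pparg and Foxa1 did not (adjusted p = 0.0559 each). With Cdh1 alone as the reference, Elf3 did not pass in UT against UN (0.04, adjusted p = 0.957, exact permutation) and Gata3 did (-1.13, adjusted p = 0.0285, exact permutation). In UN against U, Gata3 (-1.12, adjusted p = 0.0109) and Grhl3 (-1.29, adjusted p = 0.00544) were lower by exact permutation over 7 and 6 libraries, where 0.875% of all genes were lower at that threshold, 1.51% in all, and 0.639% higher. For Grhl3 the groups did not overlap, as for 0.217% of all genes on the lower and 0.338% on the higher side. The Grhl3 value of UN 2 came from a count of 0 and so from the pseudocount. The ratio of Elf3 (0.35, adjusted p = 0.0885, exact permutation) did not pass. With Cdh1 alone, Gata3 (-0.23, adjusted p = 0.637) and Grhl3 (-0.40, adjusted p = 0.292) did not pass by exact permutation and Elf3 did (1.23, adjusted p = 0.00816). With 1 value per mouse, where U holds 3 mice, none passed in UN against U and 5 of 6 passed in UT against U, Foxa1 being lost (adjusted p = 0.0559, exact permutation).

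**Figure D4:**
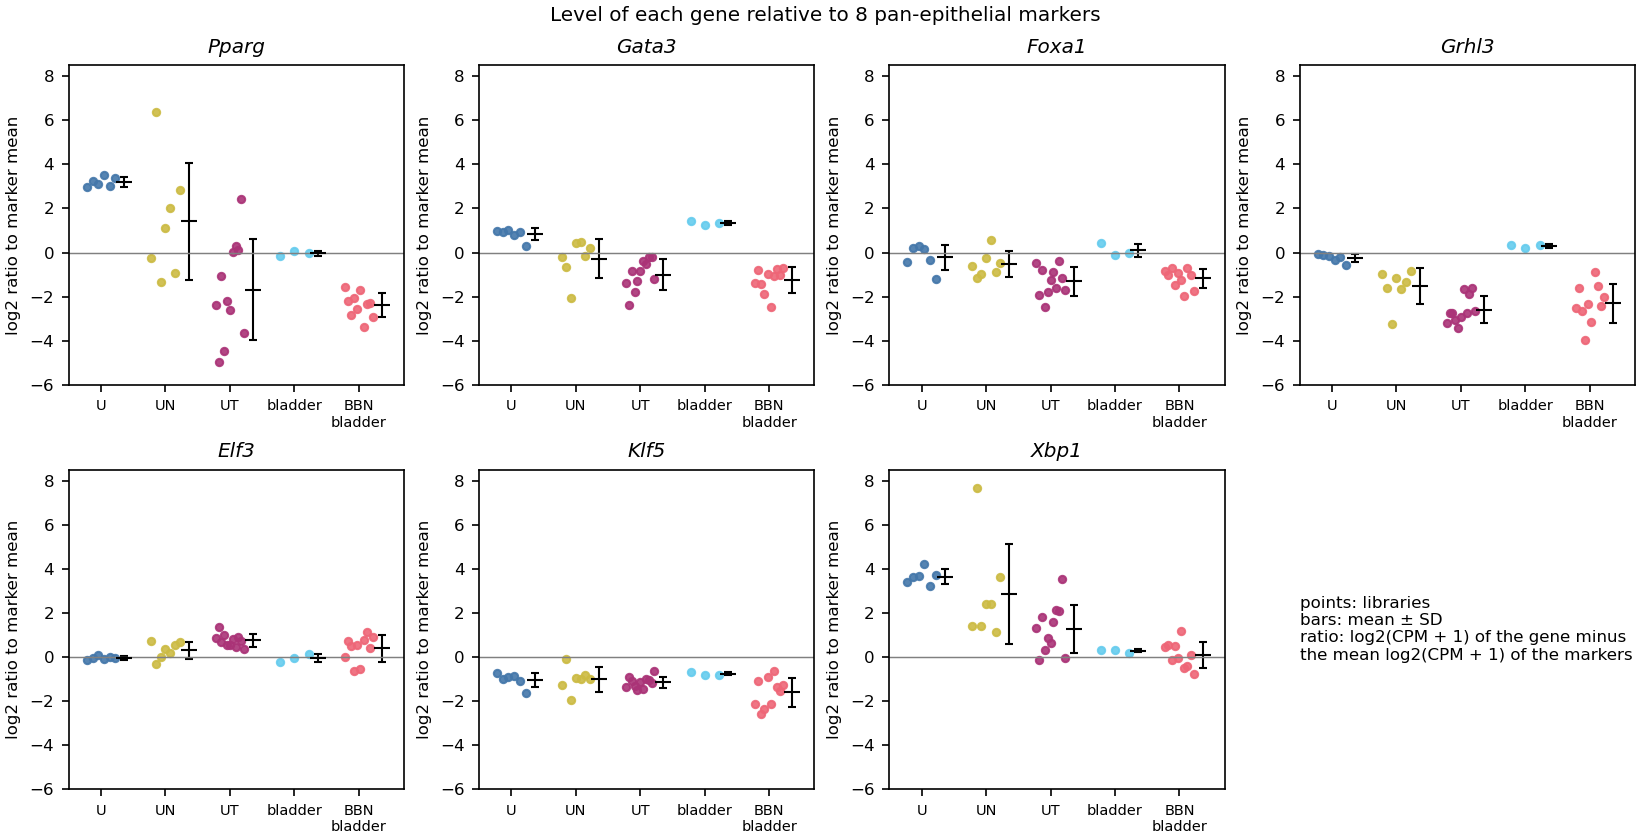
Level of each gene relative to the mean of 8 pan-epithelial markers, as a log2 ratio, in every library. Points are libraries and black bars the mean ± SD. Gata3 and Grhl3 lie lower in UT and BBN bladder than in U and bladder, where the ratio of the median gene changed by -2.15 in the ureter and -0.04 in the bladder, Elf3 lies higher in UT than in U, and the highest UN points of Pparg and Xbp1 are UN 2.

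Ordered by mean CPM, which with TMM-scaled totals changes the order of Grhl3, Elf3 and Xbp1, the groups ran U, bladder, UN, UT and BBN bladder for Pparg. For Gata3 and Foxa1 the order was bladder, BBN bladder, UT, UN and U. Grhl3 began with bladder and BBN bladder, followed by UN, UT and U within 30.6 to 39.6 CPM. Elf3 was highest in BBN bladder and UT, at 399 and 391 CPM, ahead of bladder, UN and U. Klf5 ran from bladder at 128 CPM through UT and BBN bladder, at 106 CPM each, to UN and U, and Xbp1 from UT, UN and U to bladder and BBN bladder. Neighbours that did not overlap were U and bladder for Pparg and Xbp1, and bladder and BBN bladder for Gata3 and Grhl3, and the ranges of all other neighbours overlapped. The share of all genes without overlap in CPM was not counted. Permutation tests between the 28 pairs of neighbours, adjusted together, did not separate even groups without overlap, and the smallest exact permutation p for 6 against 3 libraries, 0.0119, became an adjusted p of 0.163. With TMM-scaled totals 1 pair of Xbp1 passed.

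Over the 37 libraries, Gata3, Foxa1, Grhl3, Elf3 and Klf5 varied together, with Pearson's r of log2(CPM + 1) from 0.70 to 0.95 between pairs, as a description of libraries that share groups, depth and epithelial content. Pparg had an r of -0.45 with Elf3 and 0.58 with Xbp1. The summed adipocyte markers had an r of 0.69 with Pparg, and the summed pan-epithelial markers an r of 0.98 with Elf3, 0.95 with Klf5, 0.76 with Gata3 and 0.72 with Grhl3. The untreated bladders held 191 to 229 CPM of Pparg at adipocyte sums of 96.1 to 1686 CPM. UT 2 and UT 4, with the lowest adipocyte sums of UT (41.1 and 52.4 CPM), held 9.80 and 9.61 CPM of Pparg.

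The genes most like each member over these libraries were sought among 15374 genes with a mean of at least 1 CPM. For Pparg they were Sh3glb2 (r = 0.94), Chrdl1 and Agmo, and for Gata3 they were Atp8b1 (r = 0.96), Plekha6 and Il17re. Grhl3 was closest to Gata3 itself (r = 0.95), then to Tbx3, a T-box factor, and Trim62. Among those closest to Elf3 were St14 (r = 0.98) and Cldn7, the latter one of the pan-epithelial markers. Foxa1 was closest to Spint1 (r = 0.95), Rab15 and Dsg2, Klf5 to Lrrc1 (r = 0.98), Limk2 and 5730559C18Rik, and Xbp1 to genes that included Sdf4 (r = 0.92) and Osgin2.

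**Figure D5:**
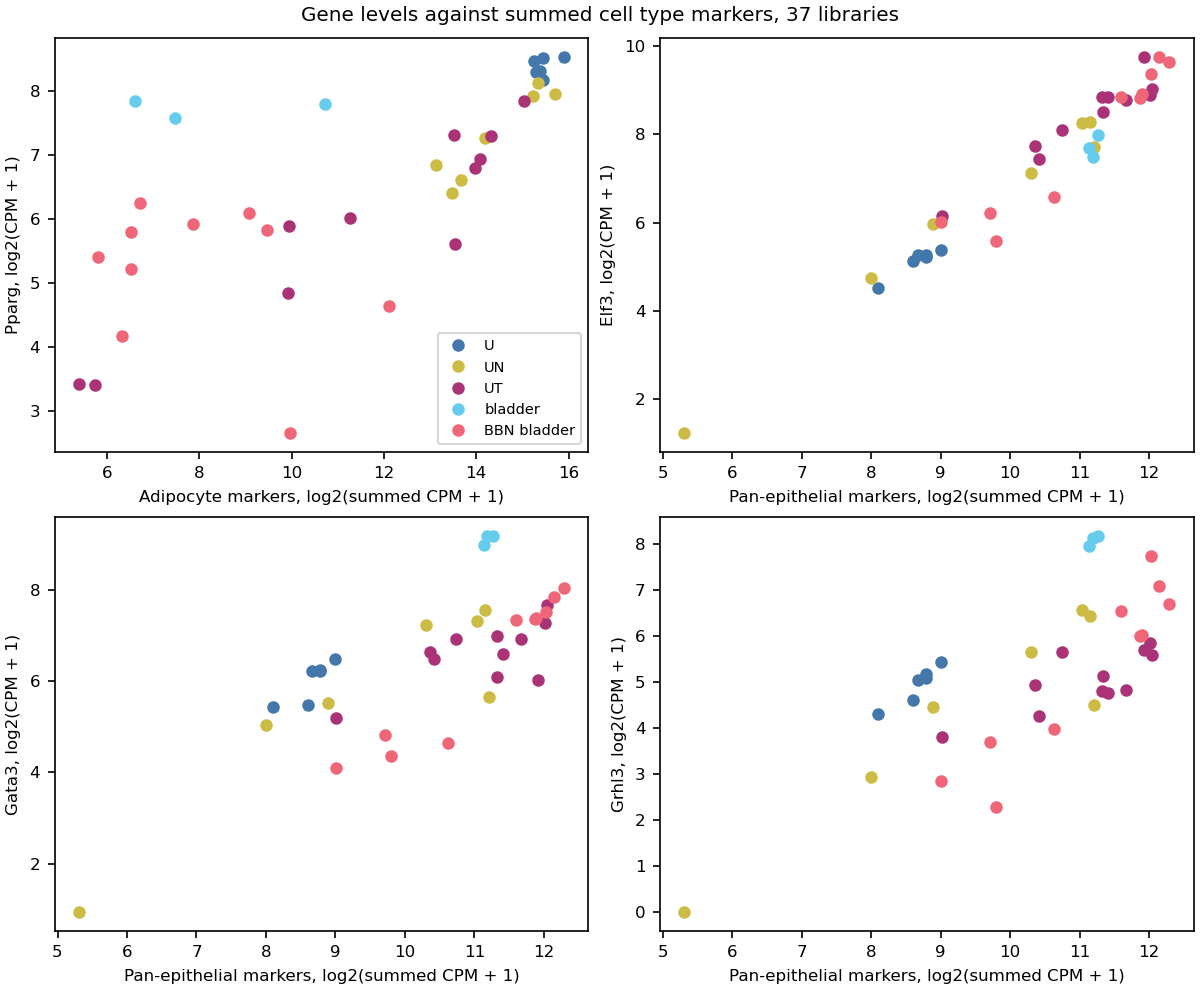
Level of Pparg against the summed adipocyte markers, and of Elf3, Gata3 and Grhl3 against the summed pan-epithelial markers, all on log2 scales, with 1 point per library. Elf3 rises with the markers over all 37 libraries (r = 0.98), whereas untreated bladder lies highest for Gata3 and Grhl3 and holds 191 to 229 CPM of Pparg at low adipocyte sums.

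Related genes are read against the share of all genes called in the same comparison. Of 20 genes of the same families as the members, 5 of 17 tested were called higher and 3 lower in UT against U, where 18.7% of all genes were called higher and 12.3% lower (median log2 fold change 0.59, against 0.11 over all genes). Grhl2 (2.40 ± 0.61, adjusted p = 0.00322) and Ehf (2.40 ± 0.60, adjusted p = 0.00292), epithelial relatives of Grhl3 and Elf3, rose. Gata5 (-3.39 ± 0.58, adjusted p = 0.000159) and Ppara (-2.08 ± 0.59, adjusted p = 0.00727), the latter the PPAR of fat oxidation, fell. In BBN bladder, 1 of 18 was called higher, Klf4 (2.12 ± 0.47, adjusted p = 0.00966), and 5 lower, where 7.61% of all genes were called higher and 5.74% lower, led by Ppara (-2.34 ± 0.46, adjusted p = 0.00418) and Creb3l2 (-2.22 ± 0.38, adjusted p = 0.00160). In UN against U, 4 of 17 were called higher and 1 lower, where 12.5% and 1.21% of all genes were. In UT against UN 1 was called lower, Gata6 (-1.56 ± 0.42, adjusted p = 0.0728), where 4.20% of all genes were. With mouse as a block, edgeR called no gene in UT against UN, Gata6 included. In U against bladder, 8 of 17 were called lower and none higher, where 14.3% and 15.7% of all genes were. The same shares apply to the other lists.

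Of the 15 partners and regulators, the retinoid X receptor gene Rxra, whose product pairs with PPARγ, was called lower in BBN bladder (-1.34 ± 0.28, adjusted p = 0.00668), as the only call of that list there. In UT against U, 2 were called higher and 2 lower, against 18.7% and 12.3% of all genes, among them Rxrg, which fell by 2.25 on the log2 scale (SE 0.83, adjusted p = 0.0303). Ern2, an epithelial form of the kinase that activates XBP1, was higher in UT (2.61 ± 0.69, adjusted p = 0.00422) and in UN (2.73 ± 0.72, adjusted p = 0.0161) than in U, on means of 5.27, 5.601 and 0.705 CPM. Of 12 other epithelial transcription factors, 10 of 11 tested were called higher in UT against U (18.7% of all genes) and 4 of 12 in BBN bladder (7.61% of all genes), none lower. Sox2 led the list in UT against UN (3.66 ± 0.90, adjusted p = 0.0728) and in BBN bladder (5.59 ± 0.71, adjusted p = 0.000167), on means of 0.477 CPM in UN, 6.56 in UT and 9.57 in BBN bladder. Pax8, a kidney factor, was called higher in UT than in UN (2.58 ± 0.70, adjusted p = 0.0731) and in UN than in U (3.04 ± 0.85, adjusted p = 0.0205). Its means were 0.522 CPM in U, 5.08 in UN and 32.5 in UT. UT 4 held kidney tubule markers, and their part in the Pax8 level was not tested. With mouse as a block, edgeR called no gene in UT against UN, Sox2 and Pax8 included.

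Luminal urothelial genes divided. In UT against U, 5 of 14 were called higher and 5 lower (18.7% and 12.3% of all genes), with Cldn3 (7.39 ± 1.0, adjusted p = 2.32e-05) and Cldn4 (2.30 ± 0.69, adjusted p = 0.0102), which encode tight junction proteins, leading those that rose. Upk1a, a uroplakin of umbrella cells, fell by 4.36 (SE 0.70, adjusted p = 9.40e-05) and Snx31 by 2.58 (SE 0.68, adjusted p = 0.00411). In BBN bladder 7 of 15 were called lower and 1 higher (5.74% and 7.61% of all genes), with Upk1a falling from a mean of 4390 to 63.4 CPM (log2 fold change -5.67 ± 0.83, adjusted p = 0.000521). Of the basal urothelial genes, 12 of 12 were called higher in UT against U (median 4.96), 9 of 12 in UN against U (median 3.53) and 6 of 12 in BBN bladder (median 2.65), and none lower, against 18.7%, 12.5% and 7.61% of all genes called higher. Krt14, a basal keratin, went from a mean of 7.56 CPM in U to 1647 CPM in UT (7.50 ± 1.11, adjusted p = 4.87e-05).

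PPARG target genes were a list of 12. In UT against U, 10 of 12 were called lower and none higher (median -2.25), against 12.3% of all genes called lower, led by Pck1 (-3.04 ± 1.06, adjusted p = 0.0237) and Acsl1 (-2.86 ± 0.69, adjusted p = 0.00212), both also abundant in fat. Their summed level was 27698 ± 2349 CPM in U, 13416 ± 6836 in UN and 6355 ± 6347 in UT (SD, n = 6, 7 and 11), against 2088 ± 457 in bladder and 925 ± 535 in BBN bladder (SD, n = 3 and 10). In the bladder, where adipocyte markers summed to a median of 176 CPM before and 169 CPM after BBN, with the highest sums in the untreated bladder of mouse 2 (1686 CPM) and the BBN bladder of mouse 1 (4418 CPM), and none of the 7 was called, 5 of 12 targets were called lower, against 5.74% of all genes. Among them was Pdk4, a kinase that restrains glucose oxidation (-1.94 ± 0.59, adjusted p = 0.0531).

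Of 14 XBP1 and unfolded protein response targets, 3 were called higher and none lower in UT against U, where 18.7% of all genes were called higher (median 0.31, against 0.11 over all genes). Atf4, the stress-response factor, was called higher in UT (1.09 ± 0.20, adjusted p = 0.000261), in UN (1.13 ± 0.21, adjusted p = 0.00209) and in BBN bladder (1.14 ± 0.35, adjusted p = 0.0517). It was the only call of the list in the last 2 comparisons, and Xbp1 itself was called in none of them. The 4 measured plasma cell markers, which mark a cell type rich in Xbp1, were called higher in all 3 comparisons, with sums of 19.6 CPM in U, 444 in UN, 842 in UT, 11.7 in bladder and 628 in BBN bladder on average. Their part in the Xbp1 level was not tested.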

How the data were processed

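Whole-tissue RNA of 37 libraries was prepared with SMARTerHT and Nextera XT kits, and the deposited values are estimated counts by gene symbol, which the authors did not normalize. The submitters' processing notes name TopHat2 2.1.1, Cuffdiff 2.2.1 and GRCm38, and the counting program is not given in the sources used here. Fractions occurred in 21.1% of values above 0, and counts were rounded to whole numbers for the tests. Tests used edgeR 4.0.16 (quasi-likelihood, TMM, filterByExpr, Benjamini-Hochberg over all genes tested) in R 4.3.3, with DESeq2 1.42.0 and limma 3.58.1 as alternatives. A gene was called at FDR under 0.1 and at least 2-fold. UT, UN and U were fitted together, bladders separately. All 7 members passed the filter in every comparison. CPM used library totals, with a pseudocount of 1 on log scales. Permutation tests were two-sided, took libraries as independent and passed at an adjusted p under 0.05. The ratio to the pan-epithelial markers was also computed for all genes tested, in the main setting only.

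Members, lists and tests were chosen with earlier results of these data known. The genes named are the members, the 3 most like each, and from each list at most the 2 largest calls per direction. Some genes that this rule names are not reported here. Promoters are from RefSeq (GRCm38.p6), coordinates from GENCODE vM21. UT, UN and BBN bladder of the same number come from 1 mouse, as do U and bladder. Deviations from group means had a median correlation of -0.00295 over 7 pairs of UT and UN. It was -0.0611 over 7 pairs of UN and BBN bladder and 0.0137 over 6 pairs of U and bladder. No library was a copy of another (lowest chi-square per degree of freedom 7.37). Nothing states whether the libraries were prepared separately beyond the animals. Fits were tested on simulated data.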

Additional observations from a re-analysis of the deposited data

Results flagged for a closer look

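Within groups of 4 to 10 libraries, each member's highest and lowest library were compared with the nearest other on the log2(CPM + 1) scale, and 5 of the 21 groups held a library apart by Dixon's 95% critical value. Chance flags about 1 in 20 such groups. Gata3 in UN 2 was at 0.914 CPM against 31.9 CPM in the nearest library, UN 6. Foxa1 in UN 2 was at 0.366 CPM against 27.1 CPM in UN 9. Xbp1 in UN 6, the UN library with the lowest total, was at 127 CPM against 464 CPM in UN 7. In U, Elf3 was at 21.99 CPM in U 2L against 33.9 CPM in U 3L, and Xbp1 at 354 CPM in U 3R against 465 CPM in U 2R.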

How the results depend on the processing

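Counts of members called changed as follows. UT against UN had 0, and 3 by DESeq2. UT against U had 4, 1 with the adipocyte score and 2 with the epithelial score as covariates. UN against U had 1, 2 by DESeq2 (15.1% of all genes called), 3 by limma voom (16.7%), 0 with the adipocyte score (12.4%), 0 with the ureters of a mouse summed (0.962%), and 3 without UN 2 and UN 6 (13.6%, chosen after seeing the data). BBN bladder against bladder had 2, and 4 by limma voom, with the RNA integrity number or the epithelial score as covariates, without mice 1, 3 and 4, and without mice 1, 3, 4 and 6 (the last chosen after seeing the data), where the share of all genes called rose from 13.3% to between 18 and 30.7%. The difference of BBN effects had 0, 2 by limma voom and 3 without UN 2, UN 6 and the BBN bladders of mice 1, 3 and 4 (chosen after seeing the data). Leaving out 1 library gave 0 to 3 in UT against UN, 0 to 3 in UN against U, 1 to 4 in BBN bladder and 0 to 2 in the difference. The 3 in UN against U came without UN 2, where 14.7% of all genes were called. The 4 in BBN bladder came without that of mouse 8, where 14.2% were.

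With mouse as a replicate block, 0 members were called in UT against UN (Pparg -1.34, adjusted p = 0.799 by edgeR), 7 in U against bladder and 0 in the difference, and the block changed no call of a member.

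Log2 fold changes that changed sign were small or not called, except Gata3 in UT against U with the epithelial score (-1.41) and Grhl3 in UN against U with it (-1.20). With the epithelial score, UT against UN gave Gata3 -0.63, Foxa1 -0.74 and Xbp1 0.02, UT against U gave Foxa1 -0.86 and Xbp1 0.08, and UN against U gave Gata3 -0.78 and Foxa1 -0.12. With the adipocyte score, Xbp1 was 0.13 in UT against UN and 0.31 in UT against U, and Grhl3 -0.16 in UN against U. Without UN 2 and UN 6, Gata3 was -0.15 and Foxa1 -0.03 in UT against UN. By limma voom, Xbp1 was 0.01 in UT against UN. In UN against U, Xbp1 was -0.03 by DESeq2 and RLE, -0.02 by limma voom and without a filter, -0.01 with those groups alone and -0.06 without UN 2 and UN 6. In BBN bladder, Klf5 was 0.12 with the RNA integrity number, 0.23 without mice 1, 3 and 4 and 0.37 without mice 1, 3, 4 and 6. Leaving out 1 library gave, in UT against UN, Gata3 -0.03 to 0.41, Grhl3 -0.45 to 0.10 and Xbp1 -0.27 to 0.02, in UN against U Grhl3 -0.20 to 0.35 and Xbp1 -0.16 to 0.09, in BBN bladder Xbp1 -0.02 to 0.25, and in the difference Xbp1 -0.27 to 0.02. Within mice, Xbp1 was -0.14 without mouse 6, and without mouse 2 (chosen after seeing the data) Gata3 was -0.01, Foxa1 -0.18 and Grhl3 -0.35.

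Ratios to the pan-epithelial markers with an adjusted p under 0.05 numbered 4 in UT against UN, 6 in UT against U, 2 in UN against U and 4 in BBN bladder, where 14.0, 88.0, 1.51 and 14.4% of all genes passed. In UN against U, Gata3 and Grhl3 were lost and Elf3 alone passed with Cdh1 alone, leaving 1, and 5 passed without UN 2, UN 6 and the BBN bladders of mice 1, 3 and 4, and 0 with 1 value per mouse, and in UT against UN 1 and 2 passed under the last pair of settings (both chosen after seeing the data). Shares of all genes were computed for the main setting only, so the counts under other settings cannot be read against them. With Cdh1 alone, signs changed for Klf5 in UT against U (0.36), Foxa1 (0.57) and Xbp1 (0.11) in UN against U, and Klf5 (0.02) and Xbp1 (0.67) in BBN bladder. Klf5 was -0.05 in UN against U with a pseudocount of 4 CPM, and 0.06 in UT against UN and -0.18 in UN against U without the 5 libraries. With TMM-scaled totals 1 pair of neighbouring groups passed. The cause of these changes was not tested. RLE moved the median of all genes from 0.246 to 0.348 in BBN bladder and from -0.0988 to -0.235 in the difference. The 3 untreated bladders and 3 untreated mice limit the precision, and low totals limit BBN bladders 1, 3 and 4 and UN 6.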
